A study of Mus musculus with 4 samples.

Results

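Prostaglandins are lipid signals of inflammation, and the genes described here are 10 that make or sense them: the cyclooxygenases Ptgs1 and Ptgs2, the synthases Ptges, Ptges2, Ptges3, Ptgis and Ptgds, and the receptors Ptger2, Ptger4 and Ptgfr. They were taken by symbol from a list drawn up for the pathway, in which Ptgs2 is a published target of the microRNA miR-26a. A row was found for 9 of the 10 in a table of 16416 genes, and all 9 passed the low-count limit in each comparison; Ptgds is not analysed here. The 4 libraries, 1 per group, came from mouse synovial fibroblasts that had grown out of shoulder joint capsule, taken 1 week after the joint was immobilized, and cultured to passage 2. The wild-type library was from C57BL6/J cells and the knockout library from miR-26a -/- cells, and the labels give no transfection for either. A further pair came from miR-26a -/- cells that received 10 nM of an oligonucleotide duplex for 24 h, the Silencer Negative Control siRNA in one library and the miR-26a mimic in the other. All animals had thus been immobilized, only cells with the deletion were transfected, and the number of mice behind a culture is not given in the sources used here.

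Cyclooxygenases turn arachidonic acid, cut from membrane lipids by phospholipases, into the unstable prostaglandin H2. Terminal synthases convert that intermediate into prostaglandin E2, prostacyclin, prostaglandin D2 or thromboxane, which act on G protein-coupled receptors of the cell that made them or of its neighbours. Ptgs1 is usually expressed steadily, whereas Ptgs2 is induced by cytokines and growth factors, and its transcript is short-lived. In joint tissue, fibroblasts and macrophages are both known producers, and prostaglandin E2 is a mediator of pain and swelling.

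A microRNA pairs through its seed, bases 2 to 8 from the 5′ end, with sites in transcripts, mostly in the 3′ untranslated region (hereafter 3′ UTR). The mature miR-26a-5p is encoded at chr9:119031811-119031832 (Mir26a-1) and again at chr10:126995543-126995564 (Mir26a-2), both on the plus strand of GRCm38.p6, and the guide strand of the mimic has 0 differences from it. Another gene, Mir26b at chr1:74394324-74394344, encodes a microRNA of another name with the same seed. The RefSeq mature sequences are shown because they define the sites searched, with the seed in capitals.
mmu-miR-26a-5p: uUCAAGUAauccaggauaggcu
mmu-miR-26b-5p: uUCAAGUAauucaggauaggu
Neither microRNA has a row in the gene table, so the deletion was not checked against its own product, and the labels name only miR-26a as deleted.

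Ptgs2 stood apart among the 9 genes in this search. Its 3′ UTR of 2445 bases (GENCODE M21, GRCm38) holds 2 copies of the 8-base site, TACTTGAA, which is the complement of the seed followed by A. Of 15649 genes of the table with an annotated 3′ UTR, 714 (4.56%) hold at least 1 such site and 40 (0.256%) hold 2 or more. The first copy begins at base 246 of the 3′ UTR and the second at base 1315, both on the plus strand of chromosome 1. The windows of 30 bases around each are shown with the site in capitals.
Ptgs2 site 1, chr1:150106017-150106046: tgatatctttaTACTTGAAtttcagatcat
Ptgs2 site 2, chr1:150107086-150107115: catattttctcTACTTGAAgttttacattc
None of the other 8 genes holds the 7 bases TACTTGA, which 10.6% of genes hold. Ptgs1 and Ptges2 each hold the shorter match ACTTGAA, at chr2:36251982-36251988 and chr2:32403796-32403802, and the latter lies past the end of the RefSeq gene model. Ptges3 and Ptgfr hold only the 6 bases ACTTGA, and Ptges, Ptgis, Ptger2 and Ptger4 hold none of these strings.
Ptgs1 match, chr2:36251971-36252000: aaacattcccaACTTGAAtgtctagaatgt
A match describes the letters of the annotated transcript and does not show that the microRNA binds there.

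**Figure D1:**
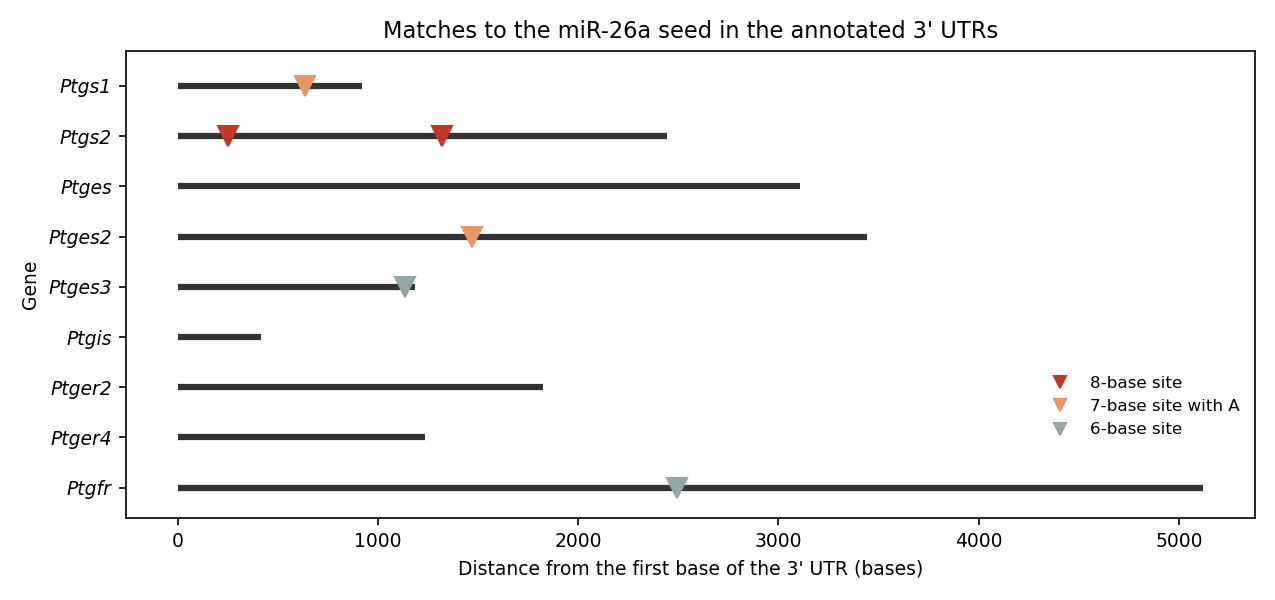
Bars show the longest annotated 3′ UTR of each of the 9 genes, in bases from its first base, and triangles mark matches to the miR-26a seed by type. Ptgs2 carries both 8-base sites, at bases 246 and 1315, and the other matches are shorter.

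The libraries held between 17598763 and 19392655 estimated counts, and between 15136 and 15365 genes had counts above 0. Levels are given as TPM (transcript abundance corrected for transcript length and library total), and ratios as log2 ratios of scaled counts with a 95% counting interval in parentheses. Where 4 values are given for a gene, they run from wild type and knockout to negative control and, last, mimic. A gene was said to differ when the ratio was at least 2-fold and the interval excluded 0. With 1 library per group there is no replicate spread, so no p-value is given, and every difference is between libraries and not shown to be between conditions. Macrophage genes were abundant in all 4 libraries although the labels name the cells fibroblasts: the 20 macrophage markers summed to 24226 TPM in the wild-type library and to between 34363 and 35599 TPM in the 3 others, with Lyz2, C1qb and C1qc the most abundant. Lyz2 alone, with 14913, 18991, 17286 and 17807 TPM, made up most of each sum. The 16 fibroblast markers summed to 20357 TPM in the wild-type library and to between 8334 and 9663 TPM in the others, led by collagen genes such as Col1a1. Fewer cells of a type and less RNA per cell cannot be told apart in such bulk samples.

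The first comparison asked how cells of knockout mice differ from wild-type cells. Both cyclooxygenases stood higher in the knockout library and the prostaglandin F receptor Ptgfr stood lower. The synthases Ptges2, Ptges3 and Ptgis were close to the wild-type level, and Ptges stood slightly above it, at 0.35 (0.16 to 0.54). Of the 9 genes, 2 differed upwards and 1 downwards. Among all 12805 measured genes 5.9% differed upwards and 7.01% downwards, and 9 genes are too few to read more from the larger share. The median log2 ratio of the 9 genes was 0.07, against 0.01 over all genes.

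Ptgs1, the constitutive cyclooxygenase (Entrez Gene 19224, chromosome 2, 36216742 to 36258593, GRCm38.p6), had 8.21, 39.5, 39.2 and 38.8 TPM. The wild-type library was low, and the counting intervals of the other 3 overlapped. Its 242 wild-type and 1128 knockout counts gave a log2 ratio of 2.23 (2.03 to 2.44), or 4.68-fold. Only 106 of 12805 measured genes had a larger ratio.

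Ptgs2, the inducible cyclooxygenase (Entrez Gene 19225, chromosome 1, 150100031 to 150108234), was also lowest in wild-type cells, with a smaller step. It had 5.76, 12.3, 11.5 and 13.5 TPM. The wild-type library lay below the 3 others, among which the mimic library was highest. With 214 and 495 counts, the log2 ratio of knockout to wild type was 1.22 (0.99 to 1.46), or 2.32-fold, so that the interval reached just below 2-fold. In the wild-type library both cyclooxygenases had lower TPM than Ptges, Ptges2 and Ptgis, whereas Ptgs1 exceeded all 3 in the knockout library.

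**Figure D2:**
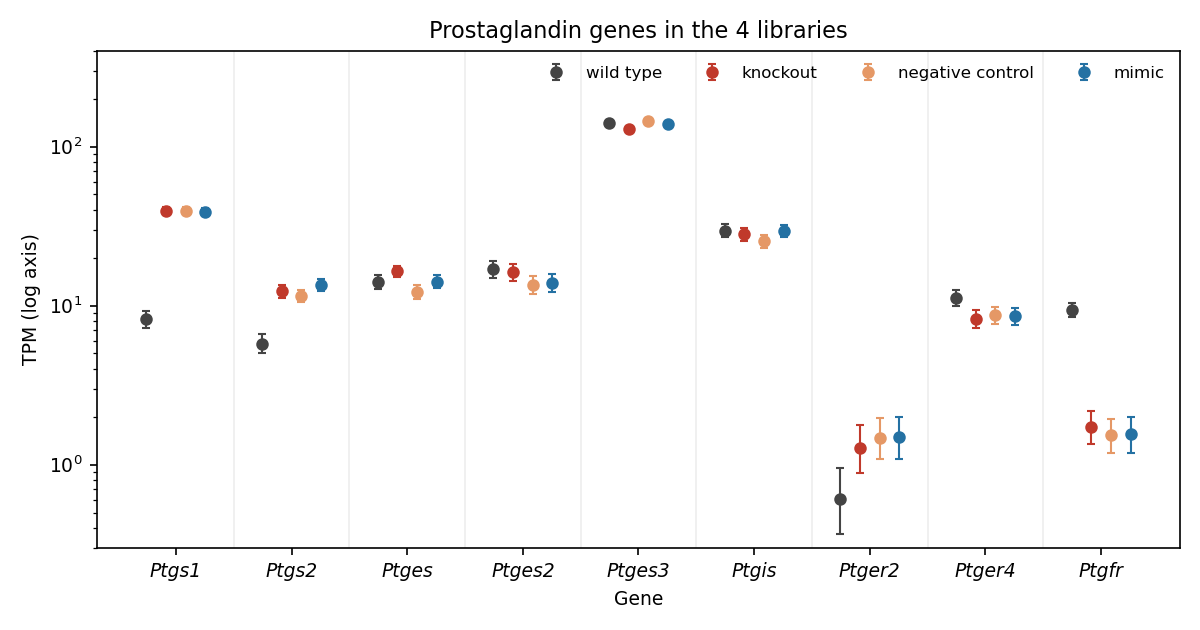
Points show the level of each gene in TPM on a log axis, by library, with 95% Poisson counting intervals as bars. The wild-type library is the low one for Ptgs1 (8.21 TPM) and Ptgs2 (5.76 TPM) and the high one for Ptgfr (9.39 TPM).

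The markers of macrophages, which express Ptgs1, and of dividing cells moved with the cyclooxygenases in the same pair of libraries. All 19 measured macrophage markers had a log2 ratio above 0, with a median of 1.10 and a range of 0.35 to 2.77, and 11 of them differed. Ptgs1 exceeded 17 of the 19 and Ptgs2 exceeded 12 of them. The 10 markers of dividing cells all differed, between 1.14 and 1.62, and Ptgs2 lay below 9 of these. The share of all measured genes that differed upwards in this pair was 5.9%, and 6549 of 12805 lay above 0. All 15 measured fibroblast markers were below 0, with a median of -1.09. The part of these markers in the levels of Ptgs1 and Ptgs2 was not tested.

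Among the synthases, Ptges (Entrez Gene 64292, microsomal prostaglandin E synthase, induced together with Ptgs2 in many cells) had 14.1, 16.4, 12.2 and 14.1 TPM. The knockout library was the highest and the negative-control library the lowest. The log2 ratio of knockout to wild type was 0.35 (0.16 to 0.54), short of 2-fold. In this pair 62.9% of all 12805 measured genes had an interval that excluded 0.

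Ptges2 (96979), a second, membrane-associated E synthase, had 17.0, 16.2, 13.5 and 13.9 TPM. Neighbouring values overlapped within counting error. Its ratio of knockout to wild type was 0.07 (-0.19 to 0.32).

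Ptges3 (56351), the cytosolic E synthase that also serves as the Hsp90 co-chaperone p23, was the most abundant of the 9 in every library. It had 139.9, 128.6, 145.4 and 138.5 TPM. A log2 ratio of 0.01 (-0.08 to 0.10) separated knockout from wild type in counts, while the deposited TPM values gave -0.12. Among the 11 Hsp90 partners listed for it, 0 reached 2-fold, with a median log2 ratio of 0.21 and with Ahsa1, an activator of Hsp90, highest at 0.84 (0.76 to 0.92).

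Ptgis (19223), which makes prostacyclin, had 29.6, 28.0, 25.3 and 29.5 TPM. Its level was lowest after the negative control. The ratio of knockout to wild type was 0.05 (-0.15 to 0.25).

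The receptors of the list went different ways. Ptgfr (19220, chromosome 3, 151798610 to 151837528), the receptor for prostaglandin F2alpha, had 9.39, 1.73, 1.53 and 1.55 TPM. The 3 libraries with the deletion overlapped within counting error and lay below the wild-type library. From 345 to 69 counts, its log2 ratio of knockout to wild type was -2.30 (-2.71 to -1.93), or 4.91-fold lower. Only 164 of all measured genes had a lower ratio, and of the 15 fibroblast markers 2 did.

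Ptger4 (19219), the EP4 receptor for prostaglandin E2, had 11.1, 8.25, 8.69 and 8.59 TPM, highest in wild-type cells. Its ratio of knockout to wild type was -0.31 (-0.56 to -0.06). Of the 9 genes, Ptgs1, Ptgis, Ptger2, Ptger4 and Ptgfr share between 82 and 1015 exon bases with genes on the opposite strand, and among those partners only Ttc33, beside Ptger4, has a row in the table. Whether strand was used in counting is not stated, so reads of such partners cannot be told apart.

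Ptger2 (19217), the EP2 receptor, was the least abundant, at 0.61, 1.28, 1.48 and 1.49 TPM. It rested on 19 and 35 counts in the wild-type and knockout libraries, a ratio of 0.86 (0.05 to 1.78), whose width shows what this depth allows.

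The order of the levels per length in wild-type cells ran Ptges3, Ptgis, Ptges2, Ptges, Ptger4, Ptgfr, Ptgs1, Ptgs2 and Ptger2. The counting intervals of Ptges2 and Ptges overlapped, as did those of Ptger4 and Ptgfr and those of Ptgfr and Ptgs1. In knockout cells it ran Ptges3, Ptgs1, Ptgis, Ptges, Ptges2, Ptgs2, Ptger4, Ptgfr and Ptger2. Overlaps there were between Ptges and Ptges2 and between Ptgfr and Ptger2.

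The second question was whether giving miR-26a back to knockout cells lowers these genes, with the negative control as reference. Neither cyclooxygenase stood below the negative control beyond counting error, and Ptgs2, the gene with 2 seed sites, was slightly higher with the mimic. No gene of the 9 reached 2-fold in either direction. The background was 0.855% higher and 0.36% lower among 12512 measured genes.

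With 507 counts after the negative control and 555 after the mimic, Ptgs2 had a log2 ratio of 0.23 (0.05 to 0.40). The interval holds no decrease, but the spread between cultures is unknown. In this pair 38.0% of all 12512 measured genes had an interval that excluded 0. A larger ratio than that of Ptgs2 was found for 1963 of them. In the authors' deposited table, whose ratios were found equal to ratios of unscaled counts, the value is 0.13. Ptgs1, with the shorter match, had a ratio of -0.01 (-0.13 to 0.11).

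Ptges and Ptgis also stood slightly above the negative control, at 0.21 (0.02 to 0.40) and 0.21 (0.02 to 0.41). For Ptges3 the ratio was -0.08 (-0.16 to 0.00) and for Ptges2 it was 0.03 (-0.24 to 0.30). The receptors Ptger2, Ptger4 and Ptgfr had ratios of 0.00 (-0.63 to 0.63), -0.03 (-0.28 to 0.22) and 0.01 (-0.51 to 0.53). Ptgfr thus stayed at 1.55 TPM with the mimic, below its 9.39 TPM in wild-type cells. In the same pair of libraries 12 of the 15 measured fibroblast markers lay above 0, with a median of 0.18, while 9 of 10 markers of dividing cells lay below 0, with a median of -0.24. Of 19 macrophage markers 6 lay above 0, and of all measured genes 6059 of 12512 did. Markers of the synovial lining and of smooth muscle and pericytes stood higher still, with medians of 0.52 (5 of 6 above 0) and 0.43 (7 of 8 above 0). The fibroblast marker Fbn1, which encodes fibrillin, had 641.3, 345.3, 101.5 and 382.6 TPM, lowest in the negative-control library, and a ratio of 1.90 (1.87 to 1.94). Their part in the ratios of Ptgs2, Ptges and Ptgis was not tested.

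**Figure D3:**
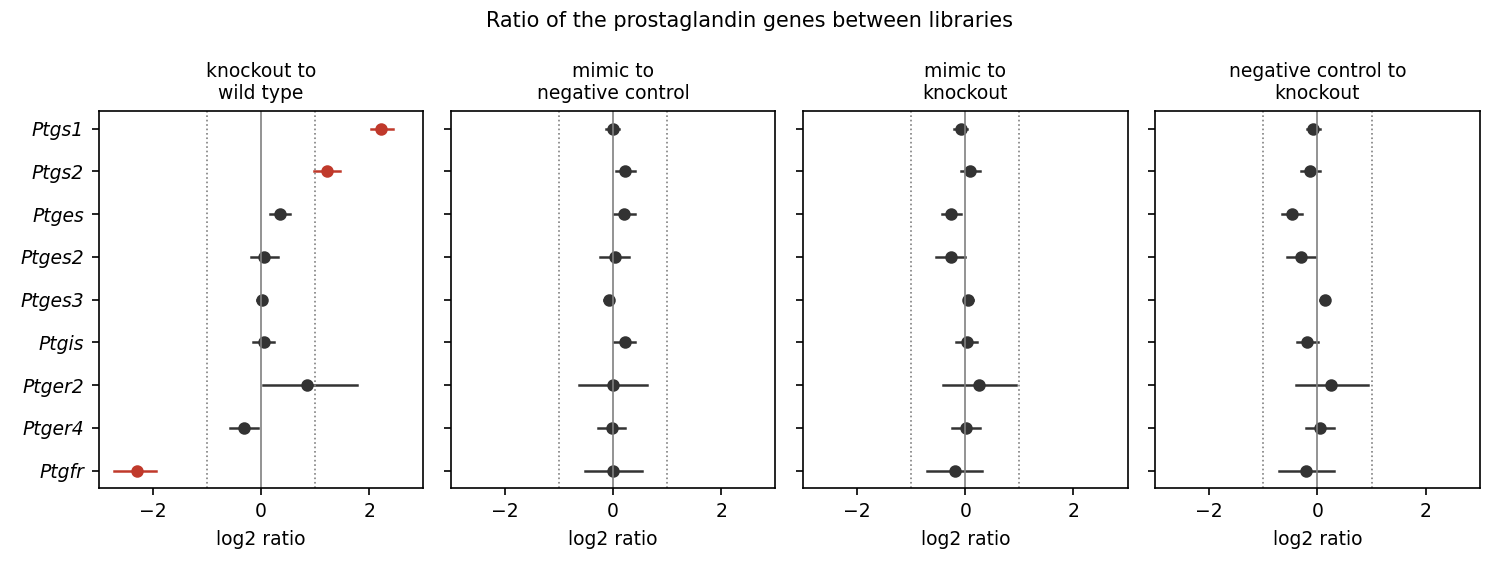
Points show the log2 ratio of each gene in 4 pairs of libraries, with 95% exact counting intervals as lines. Dotted lines mark 2-fold, and red marks the 3 genes that differed, all of them between knockout and wild type.

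Genes that share the feature of Ptgs2 mostly stood below the negative control in the mimic library, whereas between knockout and wild type their median was close to that of genes without a site. This grouping was chosen after the sites of Ptgs2 were seen, and it did not take 3′ UTR length into account. Of the 34 measured genes with 2 or more 8-base sites, 25 lay below 0 in the ratio of mimic to negative control, with a median of -0.18 and quartiles of -0.39 and -0.00. The 576 genes with 1 such site had a median of -0.08, and the 10822 genes without a 7-base site had a median of -0.00, with 50.8% of them below 0 against 73.5% of the 34. Between knockout and wild type the 38 measured genes with 2 or more such sites had a median of 0.02, as did the genes without a 7-base site, and 18 of the 38 lay below 0. Ptgs2 lay at the upper end of the 34, with 3 genes above it: Pde1c, a phosphodiesterase, at 0.80 (0.33 to 1.31), Cdk6, a kinase of the cell cycle, at 0.41 (0.31 to 0.51), and Greb1l at 0.28 (-0.49 to 1.07). The lowest were Fbxl19, a subunit of a ubiquitin ligase, at -0.86 (-1.04 to -0.69), and Zdhhc20, a palmitoyltransferase, at -0.73 (-0.82 to -0.64).

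**Figure D4:**
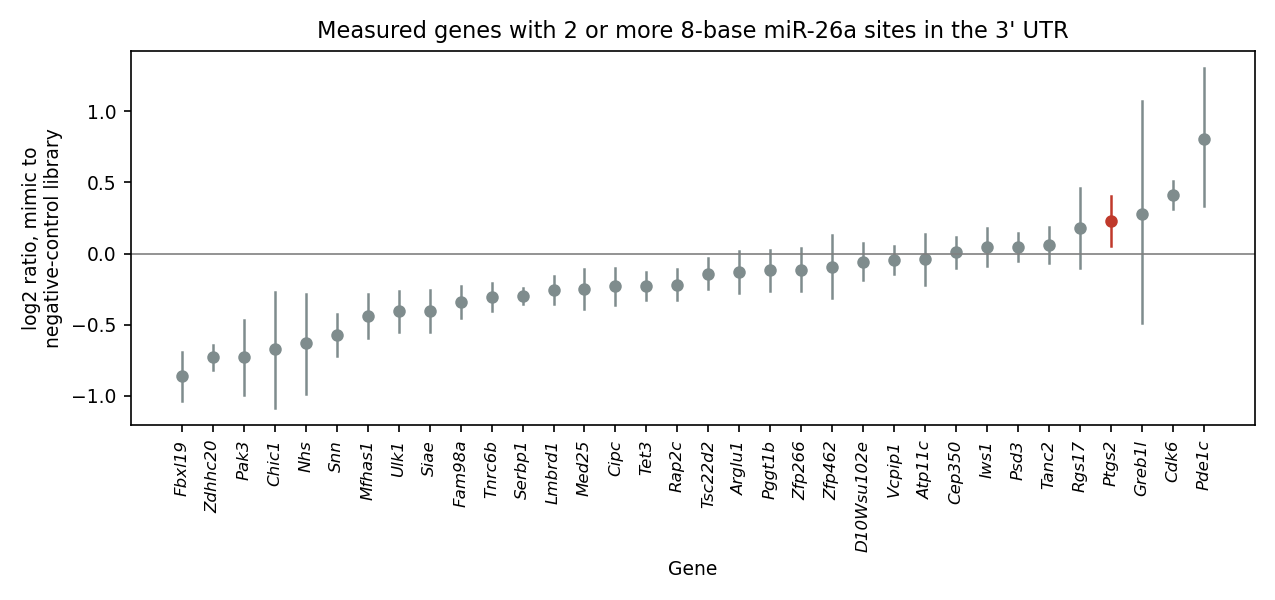
Points show the log2 ratio of mimic to negative control for the 34 measured genes with 2 or more 8-base sites, in rising order, with 95% exact counting intervals. Ptgs2, in red at 0.23, lies above 30 of them, and 25 genes lie below 0.

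Against the untransfected knockout library, which the next comparison also uses, the mimic library again had 0 of the 9 genes at 2-fold. The background was 0.263% higher and 0.479% lower among 12538 genes. Ptgs2 had a ratio of 0.10 (-0.08 to 0.27) and Ptgs1 of -0.08 (-0.20 to 0.04), so that neither interval excluded 0. Among the 36 measured genes with 2 or more 8-base sites the median was -0.12, and 8 of them had a larger ratio than Ptgs2. In this pair the median was -0.07 for genes with 1 such site and 0.006 for genes without a 7-base site. Ptges and Ptges2 were below the untransfected level, at -0.26 (-0.44 to -0.07) and -0.27 (-0.53 to -0.01). An interval that excluded 0 was found for 34.6% of all measured genes in this pair.

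Ptges and Ptges2 also stood lower after the negative control itself. Compared with untransfected knockout cells, the library of the negative control had 0 of the 9 genes at 2-fold, with a background of 0.303% higher and 0.734% lower among 12535 genes. Within that limit Ptges stood at -0.46 (-0.65 to -0.28) and Ptges2 at -0.30 (-0.56 to -0.04), while Ptges3 stood at 0.14 (0.05 to 0.22). Of all measured genes 33.5% had an interval that excluded 0 in this pair, so such an interval does not set these genes apart. Ptgs2 stood at -0.13 (-0.31 to 0.05). The Ptges level of the mimic library thus lay between those of the negative-control and untransfected libraries. Of the 15 fibroblast markers 14 lay below 0 in this pair, with a median of -0.15 and with Fbn1 at -1.80 (-1.83 to -1.77). Of all 12535 measured genes 6344 lay above 0. Of 8 smooth muscle and pericyte markers 7 lay below 0, with a median of -0.33. The synovial lining markers had 5 of 6 below 0, with a median of -0.24, whereas 13 of 19 macrophage markers lay above 0. The part of these markers in the Ptges ratio was not tested.

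Other genes of the pathway, from 8 lists, were compared in the same pairs. The counts of each list between knockout and wild type stand beside the 5.9% of all measured genes that differed upwards and the 7.01% that differed downwards, and most lists are too short to read more from a share above these. Of 6 further prostanoid synthases measured between knockout and wild type, 2 differed upwards and 0 downwards, with a median log2 ratio of 0.19. Tbxas1, the thromboxane synthase, had 20.9, 60.7, 67.2 and 68.4 TPM. Its ratio of knockout to wild type was 1.65 (1.47 to 1.85). Hpgds, which makes prostaglandin D2 in blood-derived cells, had 38.6, 93.3, 92.7 and 95.2 TPM, and its ratio was 1.41 (1.31 to 1.52). Both are known from macrophages, whose 19 measured markers had a median of 1.10, and the part of those cells in these ratios was not tested. Akr1b3, an aldose reductase that can make prostaglandin F2alpha, had a ratio of 0.48 (0.39 to 0.57). Akr1c18, a hydroxysteroid dehydrogenase of the same superfamily, had 12, 17, 5 and 23 counts. It passed the low-count limit only in pairs with the mimic library, through the higher count there, so its ratio of 2.08 (0.87 to 4.05) to the negative control is given as a value only.

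Of 4 further receptor genes measured, 0 reached 2-fold, with a median of -0.02. Ptgfrn, which encodes a protein that binds the prostaglandin F receptor and inhibits its ligand binding, came closest, at 73.2, 34.9, 24.5 and 37.3 TPM. Its ratio of knockout to wild type was -0.94 (-1.02 to -0.86), and that of mimic to negative control was 0.60 (0.50 to 0.70). Tbxa2r, the thromboxane receptor, had -0.16 (-0.44 to 0.12) and Ptger1, the EP1 receptor, 0.45 (0.09 to 0.82) between knockout and wild type. Ptger3, the EP3 receptor, was counted 11 times in the wild-type library and 0 times in each of the others, below the limit for measured genes. Ptgir, the prostacyclin receptor, had 4.04, 4.10, 7.03 and 6.48 TPM, higher in both transfected libraries, with a ratio of 0.70 (0.36 to 1.05) for negative control to knockout.

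Of 6 genes that transport or break down prostaglandins, 2 differed upwards in knockout cells and 0 downwards, with a median of 0.25. Slco2a1, the transporter that takes prostaglandins up, had 3.92, 19.9, 15.6 and 24.98 TPM, with a ratio of 2.39 (2.16 to 2.64) for knockout to wild type. Hpgd, the dehydrogenase that inactivates them inside the cell, had 11.9, 26.7, 28.1 and 26.8 TPM, with a ratio of 1.30 (1.03 to 1.59). Abcc4, an exporter, had 13.4, 16.6, 24.8 and 15.0 TPM, highest after the negative control and short of 2-fold in each pair.

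In a list of enzymes of arachidonic acid release and of related lipids, which also holds Anxa1, an inhibitor of phospholipase A2, 1 of 10 measured genes differed upwards between knockout and wild type, 0 downwards, and the median was 0.31. Pla2g5, a secreted phospholipase, was that gene, with 3 wild-type and 21 knockout counts, at 2.48 (1.07 to 5.21), and it passed the low-count limit only through the knockout library where it was high; no other gene of the list differed in this pair. Pla2g2e had 0.76 (0.39 to 1.16) and Plaat3, a phospholipase and acyltransferase, -0.83 (-1.07 to -0.60). Mgll, which breaks down the endocannabinoid 2-arachidonoylglycerol, had equal TPM in both untransfected libraries, on 213 and 231 counts, and 4.03 and 9.96 TPM after the negative control and the mimic. That gave a ratio of 1.27 (0.99 to 1.57) for mimic to negative control, the only one of the 10 at 2-fold there, and of 0.44 (0.19 to 0.69) for mimic to untransfected knockout.

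The leukotriene branch, which starts from the same arachidonic acid, went both ways between knockout and wild type, with 4 of 10 measured genes upwards, 2 downwards and a median of -0.22. Alox5ap, the protein that presents arachidonic acid to 5-lipoxygenase, had 108.5, 286.3, 292.0 and 307.2 TPM, with a ratio of 1.54 (1.42 to 1.67). Ltc4s, the leukotriene C4 synthase, and Cysltr1, a receptor for its products, stood at 1.89 (1.38 to 2.49) and 1.55 (1.12 to 2.02), and the peptidase Dpep2 at 1.08 (0.89 to 1.29). The peptidases Ggt5 and Dpep1 stood at -1.46 (-1.89 to -1.07) and -1.14 (-1.42 to -0.89). Alox5 itself was sparse, at 2.24, 1.13, 1.07 and 0.92 TPM.

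Of 25 measured inducers and regulators of Ptgs2, 1 differed upwards between knockout and wild type and 3 downwards, shares near those over all genes (5.9% and 7.01%), with a median of -0.06. Tnf, a cytokine that induces Ptgs2, had 6.94, 18.7, 16.5 and 20.5 TPM, with a ratio of 1.56 (1.21 to 1.94). Il1r1, the interleukin-1 receptor, had 60.4, 17.1, 16.6 and 15.3 TPM, with a ratio of -1.70 (-1.82 to -1.58). Il1rn, the antagonist of that receptor, had 709.1, 155.9, 149.6 and 151.4 TPM, with a ratio of -2.05 (-2.11 to -1.999), and the transcription factor Egr1 stood at -1.11 (-1.19 to -1.03). Il1b, the interleukin itself, was counted at most 2 times in any library. With the mimic, Cebpb, a transcription factor with known sites in the Ptgs2 promoter, stood at -0.57 (-0.71 to -0.43) against the negative control and at -0.35 (-0.50 to -0.21) against untransfected cells. Il6 stood at -0.65 (-1.08 to -0.23) against the negative control, and 0 of the 25 genes reached 2-fold in that pair.

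A list around cyclic AMP, the messenger of the EP2, EP4 and prostacyclin receptors, holds both response genes and signalling components such as Gnas, Adcy7, Prkar1a and Prkaca. It had a median of -0.07 between knockout and wild type, with 1 of 14 measured genes upwards and 2 downwards, beside 5.9% and 7.01% over all genes. Pde4d, a phosphodiesterase, and Nr4a1, a nuclear receptor, stood at -1.21 (-1.50 to -0.93) and -1.001 (-1.33 to -0.69). Ereg, the growth factor epiregulin, had 1.55, 3.63, 5.57 and 10.04 TPM, lowest in wild-type cells and highest with the mimic. Its ratio was 1.34 (0.89 to 1.85) for knockout to wild type. That of mimic to untransfected knockout was 1.42 (1.14 to 1.72), the only one of the 14 at 2-fold in that pair.

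**Figure D5:**
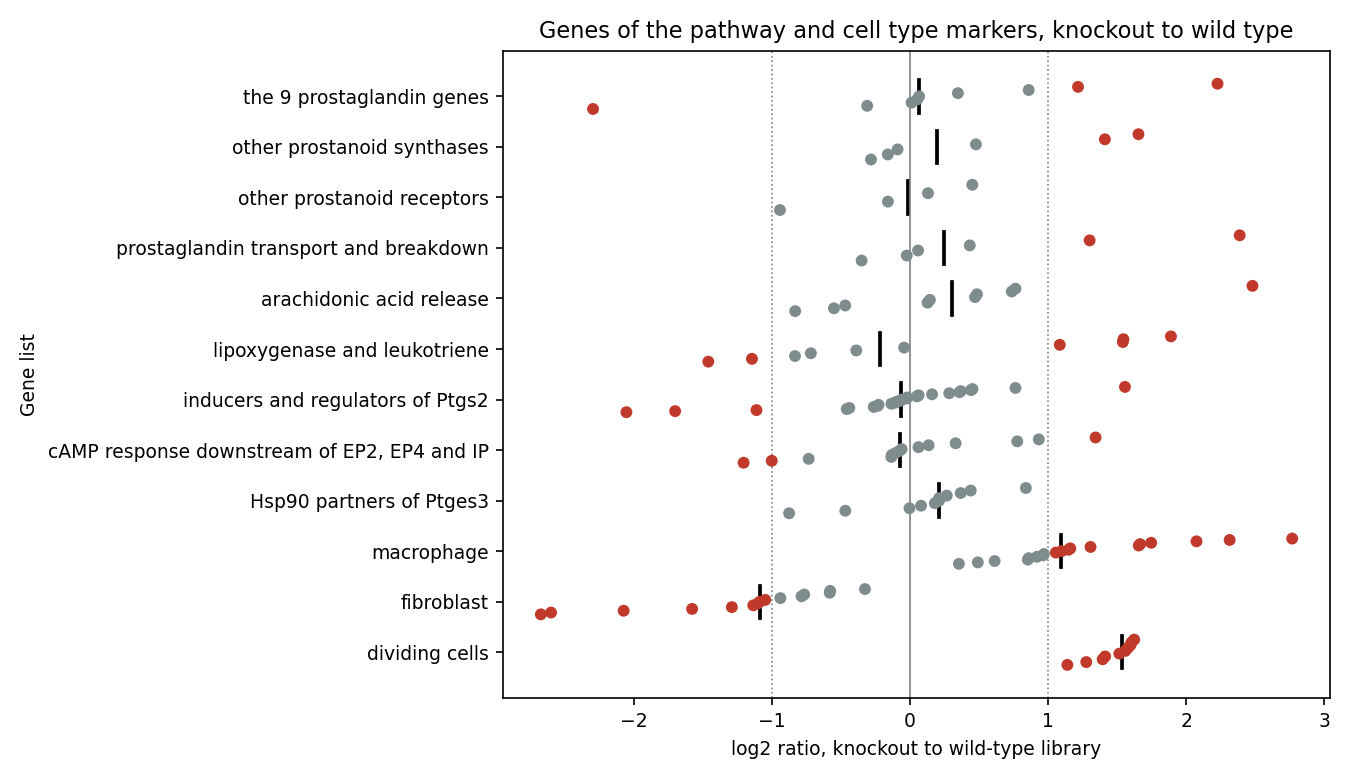
Each point is a measured gene, placed by its log2 ratio of knockout to wild type, in rows for the 9 prostaglandin genes, the 8 pathway lists and 3 marker lists. Vertical bars are medians, dotted lines mark 2-fold, and red marks genes that differed. Ptgs1 at 2.23, Ptgs2 at 1.22 and the markers of macrophages and dividing cells lie above 0, and Ptgfr at -2.30 and the fibroblast markers below it.

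Markers of mast cells, lymphocytes, endothelium and neutrophils were sparse. The 4 mast cell and 4 lymphocyte markers in the table had 0 measured genes, and their sums did not exceed 0.44 TPM and 0.32 TPM in any library. Endothelial markers summed to between 8.97 and 11.6 TPM and neutrophil markers to between 2.70 and 5.61 TPM. Markers of smooth muscle and pericytes summed to 1396 and 3249 TPM in wild-type and knockout cells, sums carried by Acta2. That list went both ways, with 4 of 8 genes above 0 and 4 below and a median of -0.10: Acta2, Cnn1 and Tagln differed upwards, while Rgs5, Cspg4, Mcam and Des had ratios between -0.90 and -0.58. Adipocyte markers summed to 273.0 and 64.9 TPM in the same order. Adipoq, Cfd and Plin1 had 204, 154 and 35 wild-type counts and 1, 1 and 2 knockout counts, and passed the low-count limit only through the wild-type library, so no count is read from that list; Fabp4 stood at -1.61 (-1.82 to -1.41). Synovial lining markers summed to 332.4 and 249.8 TPM, with 2 of 6 measured genes downwards. Over all measured genes 5.9% differed upwards and 7.01% downwards, and these marker lists are too short to read more from their counts. The part of these markers in the levels of the prostaglandin genes was not tested.

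The promoters of the cyclooxygenases are shown because both genes differed upwards in the same pair of libraries. The windows are 250 bases before to 50 bases after the RefSeq start (GRCm38.p6), and 9 of the 10 listed genes have one. For Ptgs1 that start lies inside the RefSeq gene span given above, downstream of its first base, and positions are counted from it. Motifs were searched on both strands and are in capitals: the TATA box TATAAA, the palindromic C/EBP motif TTGCGCAA, the CRE half-site TGACG, the E-box CACGTG, the AP-1 motif TGANTCA, the GC box GGGCGG and the PU box GAGGAA.
Ptgs1, chr2:36230176-36230475, plus strand: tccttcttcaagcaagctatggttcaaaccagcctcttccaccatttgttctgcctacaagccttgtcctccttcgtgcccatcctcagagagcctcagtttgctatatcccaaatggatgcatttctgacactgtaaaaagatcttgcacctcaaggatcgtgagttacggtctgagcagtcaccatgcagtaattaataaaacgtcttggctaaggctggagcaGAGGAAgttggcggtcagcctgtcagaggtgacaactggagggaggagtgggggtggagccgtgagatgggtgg
Ptgs2, chr1:150099781-150100080, plus strand: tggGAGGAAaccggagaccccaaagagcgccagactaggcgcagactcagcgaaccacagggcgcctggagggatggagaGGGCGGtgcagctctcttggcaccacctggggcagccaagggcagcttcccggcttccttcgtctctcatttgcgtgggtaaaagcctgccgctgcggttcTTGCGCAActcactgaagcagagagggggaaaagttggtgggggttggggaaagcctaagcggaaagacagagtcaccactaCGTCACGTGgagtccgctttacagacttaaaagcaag
Ptgs2 holds the C/EBP motif 69 bases before the RefSeq start used, and 0.266% of 12776 promoters hold this motif. It also holds a GC box (58.3% of promoters), a PU box (26.7%), and a CRE half-site (28.3%) that overlaps an E-box (9.31%) after that start. Windows around other starts were not searched. Ptgs1 holds a PU box 24 bases before the start used and none of the others. Neither window holds the TATA box (8.45%) or the AP-1 motif (5.49%). These matches are descriptions of the letters, and no binding was measured.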

How the data were processed

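RNA of 4 cultures was sequenced, 1 library per group, each assigned by its label. FastQC, HISAT and Bowtie2, with the builds GRCm38.p6 and mm10, appear in the submitters' processing notes without roles or versions; the quantifier and its strand setting are not stated there. Per the file headers the table holds estimated counts, which the authors did not scale and of which about 5% have decimals, and the authors deposited TPM beside them. The deposited FPKM, and a deposited signal of normalized counts, were not used. The authors' other table gives, for pairs of libraries, deposited log2 ratios with p-values from PoissonDis; in the 3 pairs checked its ratios equal those of unscaled counts within 0.001 for every gene with counts in both, 14600 genes between knockout and wild type.

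Counts were rounded and scaled with edgeR TMM factors of 0.978, 1.00, 1.02 and 0.997 (wild type, knockout, negative control, mimic) over the whole table. Log2 ratios add a prior of 1 count. Intervals are exact conditional binomial (Clopper-Pearson) for ratios and exact Poisson for TPM, at 95%. They hold counting error alone and treat each read as independent, although several reads can stem from 1 molecule. Measured genes have at least 1 CPM (counts scaled by library total and TMM factor) in either library. The floor of 3 counts is 0.151 to 0.170 CPM. The procedure was run on simulated Poisson counts, which share the assumption of the intervals and hold no spread between cultures. That run therefore checks the computation only. The 3′ UTRs are the longest of each gene in GENCODE M21 (GRCm38), matched by symbol for 95.3% of the table; microRNAs and promoters are from RefSeq.

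Genes named beside the 10 are, per list and pair of libraries, among the 3 largest ratios or at 2-fold; the genes with 2 sites, and a few levels given for context, were chosen after their values were seen. The genes and lists were chosen with earlier results of these data known. Alternatives were DESeq2 size factors, total counts, TPM, a prior of 5 counts, other CPM limits and a 1.5-fold limit. Software was R 4.3.3, edgeR 4.0.16, DESeq2 1.42.0, Python 3.11.15, scipy 1.17.1, pandas 2.3.3, numpy 2.4.6 and matplotlib 3.10.9.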

Additional observations from a re-analysis of the deposited data

How the results depend on the processing

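The number of the 9 genes at 2-fold between knockout and wild type was 3 under every other scaling, prior and CPM limit and 4 at a 1.5-fold limit, where Ptger2 joined, and it was 0 in the 3 other pairs under all of them. Of 36 ratios of single genes, all stayed within their counting intervals with DESeq2 size factors, total counts and a prior of 5 counts, and with deposited TPM 1 did not, Ptges3 between knockout and wild type at -0.12. Ptgs2 stood between 0.19 and 0.23 for mimic to negative control under these 4 settings. The shift with TPM between knockout and wild type was not particular to Ptges3. Ptgs2 fell to 1.08, Ptges to 0.22, Ptges2 to -0.07 and Ptgis to -0.08, each within its wider interval. Ptger4 and Ptgfr also fell, whereas Ptgs1 and Ptger2 rose slightly. The number with a 7-base site was 1 from all coding transcripts too. Background counts moved more. At a 1.5-fold limit 3135, 568, 368 and 463 genes differed in knockout to wild type, mimic to negative control, mimic to knockout and negative control to knockout, against 1654, 152, 93 and 130 as reported. A prior of 5 counts gave 58 for mimic to knockout and 84 for negative control to knockout, no CPM limit gave 159 and 212, and a limit of 5 CPM gave 12 and 38, with 53 for mimic to negative control; the limit chooses which genes enter. No paired analysis was possible because each group has 1 library, and leaving out a library leaves no comparison. Depth limits Ptger2 most, with 19 to 47 counts per library.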

Other observations

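The genes whose pattern over the 4 libraries was nearest to that of each cyclooxygenase were found by the largest deviation of centred log2 CPM. The search covered 10522 genes with a mean of at least 5 CPM and left out predicted and clone names. Nearest to Ptgs2 were Knl1, a kinetochore protein, at 0.02, Epsti1 at 0.05, Rapgef5, an exchange factor, at 0.06, Uhrf1, a protein of DNA methylation upkeep, at 0.06, and Arhgap19 at 0.06. Nearest to Ptgs1 were Neurl3 at 0.07, Spn, the leukocyte sialophorin, at 0.10, Tmem273 at 0.10, Parm1 at 0.11 and Fcrls, an Fc receptor-like gene of microglia and macrophages, at 0.12. These are likenesses over 4 points only.

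The passenger strand of the mimic, as printed in the labels, differs from the RefSeq mmu-miR-26a-1-3p at 1 of 22 positions, A14C, counted from 1 at the 5′ end with the RefSeq base first. The guide strand has no difference from mmu-miR-26a-5p, and mmu-miR-26b-5p differs from it within its 21 bases by C11U and C21U, both outside the seed.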
